A study of Mus musculus with 20 samples.

Results

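Macrophages sorted from the visceral adipose tissue (VAT) of old and young wild-type mice were compared by RNA sequencing. The comparison holds 7 of the 20 libraries of the series, namely the 4 libraries of 24-month-old and the 3 libraries of 3-month-old wild-type VAT macrophages, chosen by those labels from the table in which the VAT libraries were normalised together. All 7 came from male mice, with no treatment of the animals named in the labels, and the cells had been sorted by flow cytometry as positive for F4/80 and CD11b, surface proteins that are found on macrophages and on other myeloid cells. The other libraries of the series, from spleen and from mice that lack Nlrp3, enter only as alternatives. The labels state neither the strain, nor whether each library is a separate animal, nor whether both ages came from the same colony. The p-values therefore measure the spread between these samples, which may be technical, and age and colony cannot be told apart.

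Adipose tissue macrophages take up lipid and cell debris, remodel matrix and exchange signals with the adipocytes, the vessels and the sympathetic nerves around them. Noradrenaline from those nerves drives lipolysis, the release of fatty acids from stored fat, and macrophages near nerves can take up the transmitter and break it down with enzymes such as monoamine oxidase A. The NLRP3 inflammasome is a cytosolic complex that activates caspase-1, which matures interleukin-1β and interleukin-18. The series addresses how these pathways stand in fat macrophages of old mice.

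Values are the authors' normalised read counts per gene and are given in the order of the replicate numbers. A fold change is the ratio on the scale of log2(value + 1), and a gene is called when its adjusted p in a limma fit over all tested genes is under 0.05. The 7 libraries held between 27.7 M and 36.7 M reads over the genes in the table, so that 3 reads, taken as the smallest count to be read as a signal, correspond to a normalised count of 2.69 to 3.72. Of 13051 genes tested, 1148 were called (8.8%), of which 517 were higher at 24 months (3.96%) and 631 lower (4.83%), and 588 differed by more than 2-fold. The values of the 2 ages did not overlap in 3101 genes (23.8%), with the old libraries above in 11.3% of genes and below in 12.5%. In the same 7 columns of the table that was normalised with the spleen libraries, 1159 genes were called, and 1082 of the 1148 were among them. Leaving out 1 library at a time gave between 346 calls (without 3-month replicate 3) and 1412 (without 24-month replicate 4). The count also fell without 3-month replicate 1 (565), 3-month replicate 2 (569) and 24-month replicate 2 (656). The 60 lists and the genes named were chosen with earlier results of these data known. Among the 217 called genes that the naming rules chose, 74 stayed called without each of the 7 libraries, and all 217 kept their direction in each of the 19 alternative analyses that tested them (Faim3 and Actg2 were tested in 18). In 208 of the 217 the ages did not overlap, so leaving out 1 library could not reverse the direction. With the 13 wild-type libraries of both tissues in 1 fit, 69 of the 217 lost their call.

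**Figure D1:**
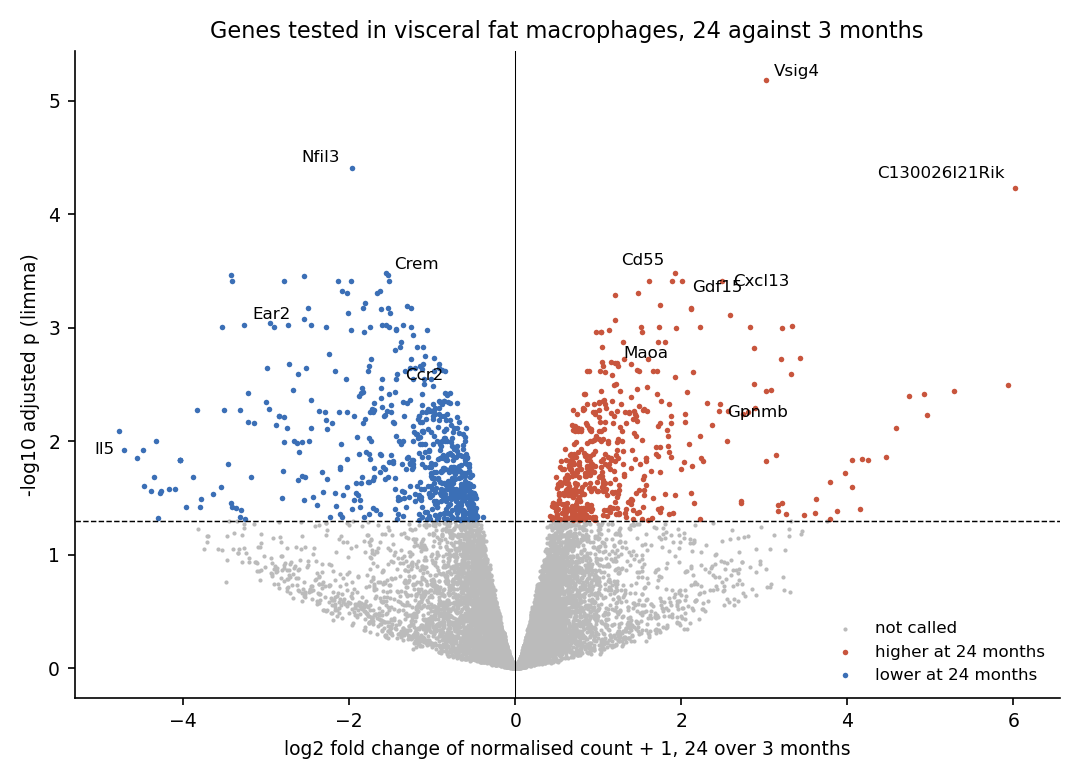
Each point is 1 of the 13051 tested genes, with the log2 fold change of 24 over 3 months on the x axis and −log10 of the limma adjusted p on the y axis. Red points are the 517 genes called higher at 24 months, blue points the 631 called lower, grey points the rest, and the dashed line marks an adjusted p of 0.05; Vsig4 has the smallest adjusted p and C130026I21Rik the largest rise.

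The sorted cells carried the genes that define macrophages. Adgre1, which encodes F4/80 itself, read 21883, 22598 and 17310 at 3 months and 22617, 30923, 27740 and 42909 at 24 months, a log2 fold change of 0.56 ± 0.20 (SE) that did not pass the test (adjusted p = 0.0987). Itgam, which encodes CD11b, had a log2 fold change of −0.43 ± 0.15 (adjusted p = 0.104). Csf1r, the receptor for the macrophage growth factor CSF1, and Fcgr1, a high-affinity antibody receptor, were not called either (log2 fold changes of 0.40 and 0.43). Cd68, a lysosomal glycoprotein of phagocytes, was 1.66-fold higher at 24 months, and Mertk, a receptor for dying cells, was 1.60-fold higher. Both of these calls were lost without single libraries, with an adjusted p of up to 0.132 for Cd68 and 0.203 for Mertk, each without 3-month replicate 3. In bulk RNA, fewer cells of a type and less RNA per cell cannot be told apart, and this holds for every gene below.

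Across 60 gene lists, the shares of members called were read against the 3.96% of all tested genes that were higher and the 4.83% that were lower. Complement had 13 of 20 tested members higher, and resident macrophage genes (9 of 22), lipid-associated macrophage genes (7 of 21), lysosomal genes (12 of 35) and the type I interferon response (9 of 31) followed. Lower at 24 months were MHC class II genes (6 of 15), integrins and adhesion receptors (6 of 22), monocyte genes (5 of 21) and glycolysis genes (4 of 22). MHC class I presentation (22 tested), the unfolded protein response (19) and heat shock genes (15) had no called member by limma. At an unadjusted p under 0.05 they held 4, 2 and 5 genes, edgeR called none of them and DESeq2 called 1, 0 and 1. The median log2 fold change over all tested genes was 0.00437, against 0.73 for complement, 0.70 for resident macrophage genes, 0.58 for the type I interferon response and −0.46 for MHC class II. The lists share members, so their counts are not independent.

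**Figure D2:**
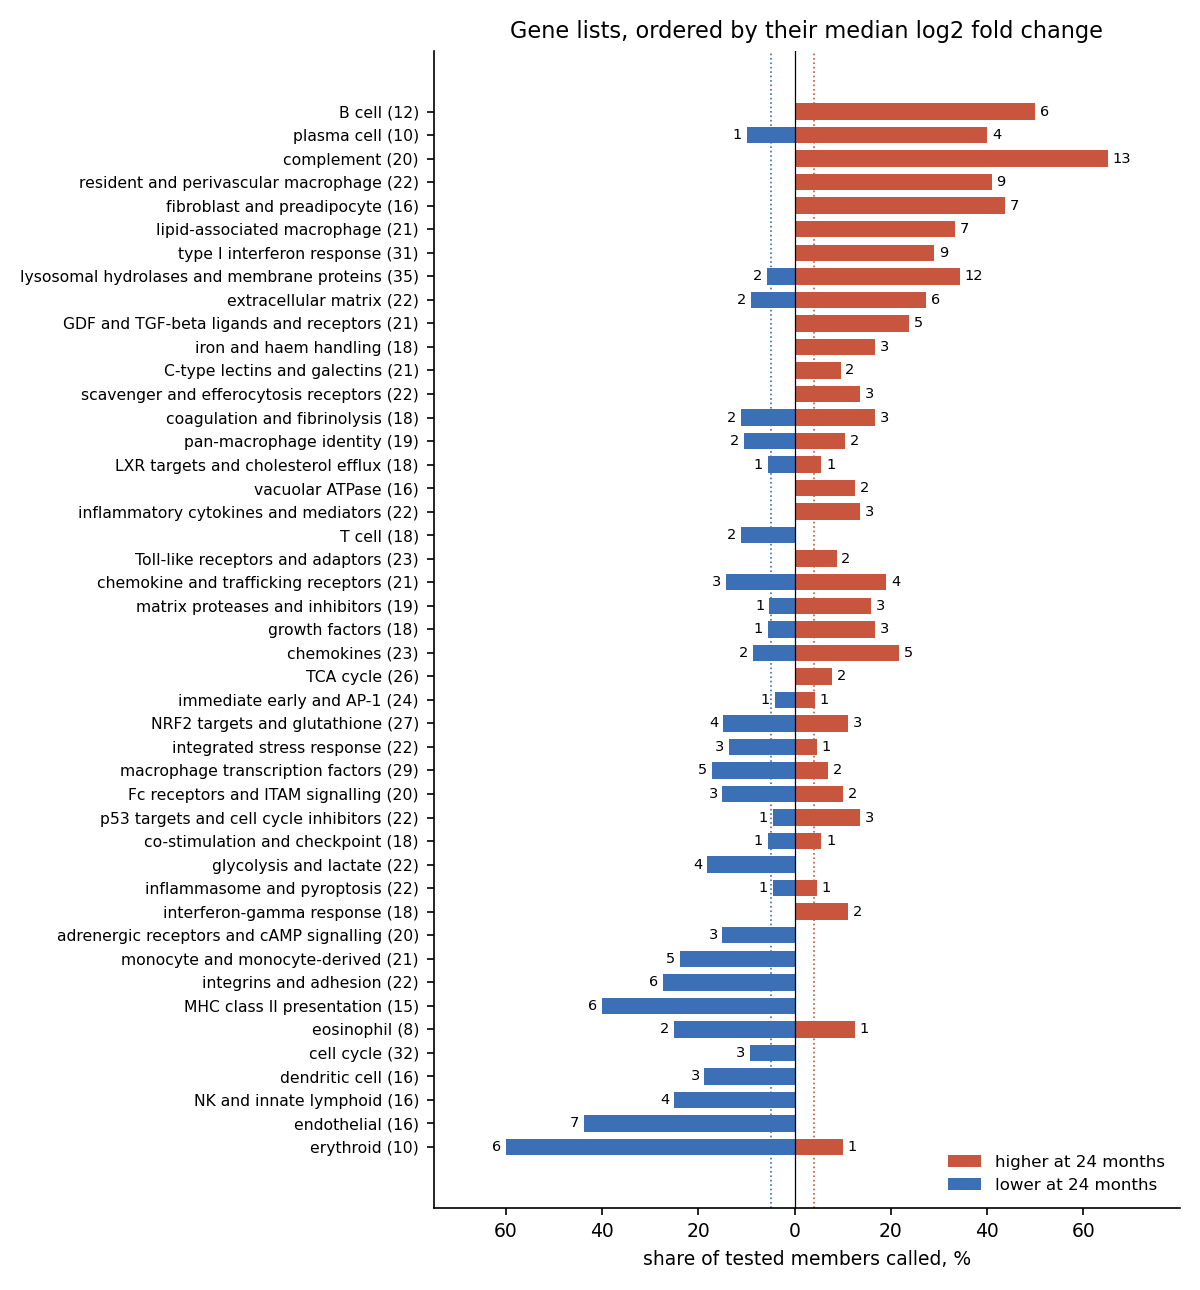
Bars show the share of tested members of each list that was called higher (red, to the right) or lower (blue, to the left) at 24 months, for lists with at least 2 calls, with the number of called members at the bar's end and the number tested in brackets. Dotted lines mark the shares over all tested genes (3.96% higher, 4.83% lower); complement is the list with 13 members called higher and none lower.

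Of the enzymes that break down catecholamines, Maoa alone was called among 15 tested genes of uptake and breakdown. That share of 6.67% stands against 3.96% of all tested genes called higher. Maoa, which encodes monoamine oxidase A, read 1230, 946 and 924 at 3 months and 2042, 2460, 2922 and 2100 at 24 months. All 4 old libraries lay above all 3 young ones, a 2.30-fold difference (log2 1.20 ± 0.17 SE, limma adjusted p = 0.00202). The gene lies on chromosome X at 16619698 to 16687812 (RefSeq, GRCm38.p6). The call held without each library in turn, with an adjusted p of at most 0.0199. It was lost in the fit that also took in the spleen libraries of the 13 wild-type samples (log2 1.24, adjusted p = 0.496). Maob, the second monoamine oxidase, had a log2 fold change of 1.72 and was not called, and 13 of the 15 tested members had a log2 fold change above 0.

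Of 20 tested genes of adrenergic and cAMP signalling, 3 fell and none rose. Crem, a transcriptional modulator whose gene is itself driven by cAMP, read 10829, 11178 and 11465 at 3 months and 4529, 4214, 3222 and 3378 at 24 months. The 2 ages were far apart, with the highest old library well under the lowest young one (2.94-fold lower, log2 −1.55 ± 0.14, adjusted p = 0.000328). Crem was called under each of the 19 alternatives. Creb1, which encodes the cAMP response element binding protein, was 1.54-fold lower, and Pde4b, a cAMP-degrading phosphodiesterase, was 1.57-fold lower. Those calls were lost without single libraries (adjusted p of up to 0.138 for Creb1 without 3-month replicate 3 and 0.178 for Pde4b without 3-month replicate 2).

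Inflammasome genes showed 1 rise and 1 fall among 22 tested. These shares of 4.5% each were near the 3.96% higher and 4.83% lower over all tested genes. Casp1, which encodes caspase-1, read 2217, 2029 and 2441 at 3 months and 3053, 3467, 3419 and 3680 at 24 months, without overlap (1.53-fold higher, log2 0.61 ± 0.13, adjusted p = 0.0147). Its call was lost without 3-month replicate 2 (adjusted p = 0.0746), without 3-month replicate 1, and in the fit with the spleen libraries (adjusted p = 0.0602). Mefv, which encodes pyrin, a sensor of another inflammasome, was 2.24-fold lower. Mefv reached an adjusted p of 0.127 without 3-month replicate 2 and was also lost without either of the other young libraries. Nlrp3 read 2943, 3308 and 3198 at 3 months and 3331, 3741, 2708 and 4254 at 24 months, which overlapped (log2 0.14 ± 0.16, adjusted p = 0.622). Pycard, the adaptor between sensor and caspase, did not overlap between the ages but was not called (log2 −0.42 ± 0.14, adjusted p = 0.0848). Il1b and Il18, whose products caspase-1 matures, had log2 fold changes of −0.31 ± 0.16 and −0.24 ± 0.19 and were not called (adjusted p = 0.265 and 0.447).

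Ligands and receptors of the GDF and TGF-β family rose in 5 of 21 tested genes, and none fell. Gdf15, a stress-induced hormone that acts on the hindbrain, read 3808, 3908 and 2867 at 3 months and 12286, 11105, 13316 and 21411 at 24 months. The lowest old library stood well above the highest young one (4.02-fold higher, log2 2.01 ± 0.21, adjusted p = 0.00039), and the call held under each of the 19 alternatives. Gdf3, a ligand of the same superfamily, read 456, 330 and 310 at 3 months and spread widely at 24 months, at 961, 1402, 587 and 2719 (3.35-fold higher, log2 1.75 ± 0.40, adjusted p = 0.0186). Bmp2, a bone morphogenetic protein, rose 1.63-fold, Gdf10 rose 2.90-fold, and Tgfbr2, a TGF-β receptor, rose 1.41-fold. The call of Gdf3 was lost with all 11 VAT libraries, including those of mice that lack Nlrp3, in the fit (adjusted p = 0.148). It was also lost without 3-month replicate 3 (0.108), 3-month replicate 2 (0.0711) or 24-month replicate 2 (0.0562). Calls were lost for Gdf10 without 3-month replicate 3 (0.121) and for Tgfbr2 without 3-month replicate 2 (0.163). In the list, 2 genes were called higher without 3-month replicate 3 or 24-month replicate 2. That count was 3 without 3-month replicate 1 or 2 or 24-month replicate 3, with all 11 VAT libraries and with the spleen libraries in the fit. Bmp2 kept its call without each library and lost it in the fit with the spleen libraries (adjusted p = 0.17).

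**Figure D3:**
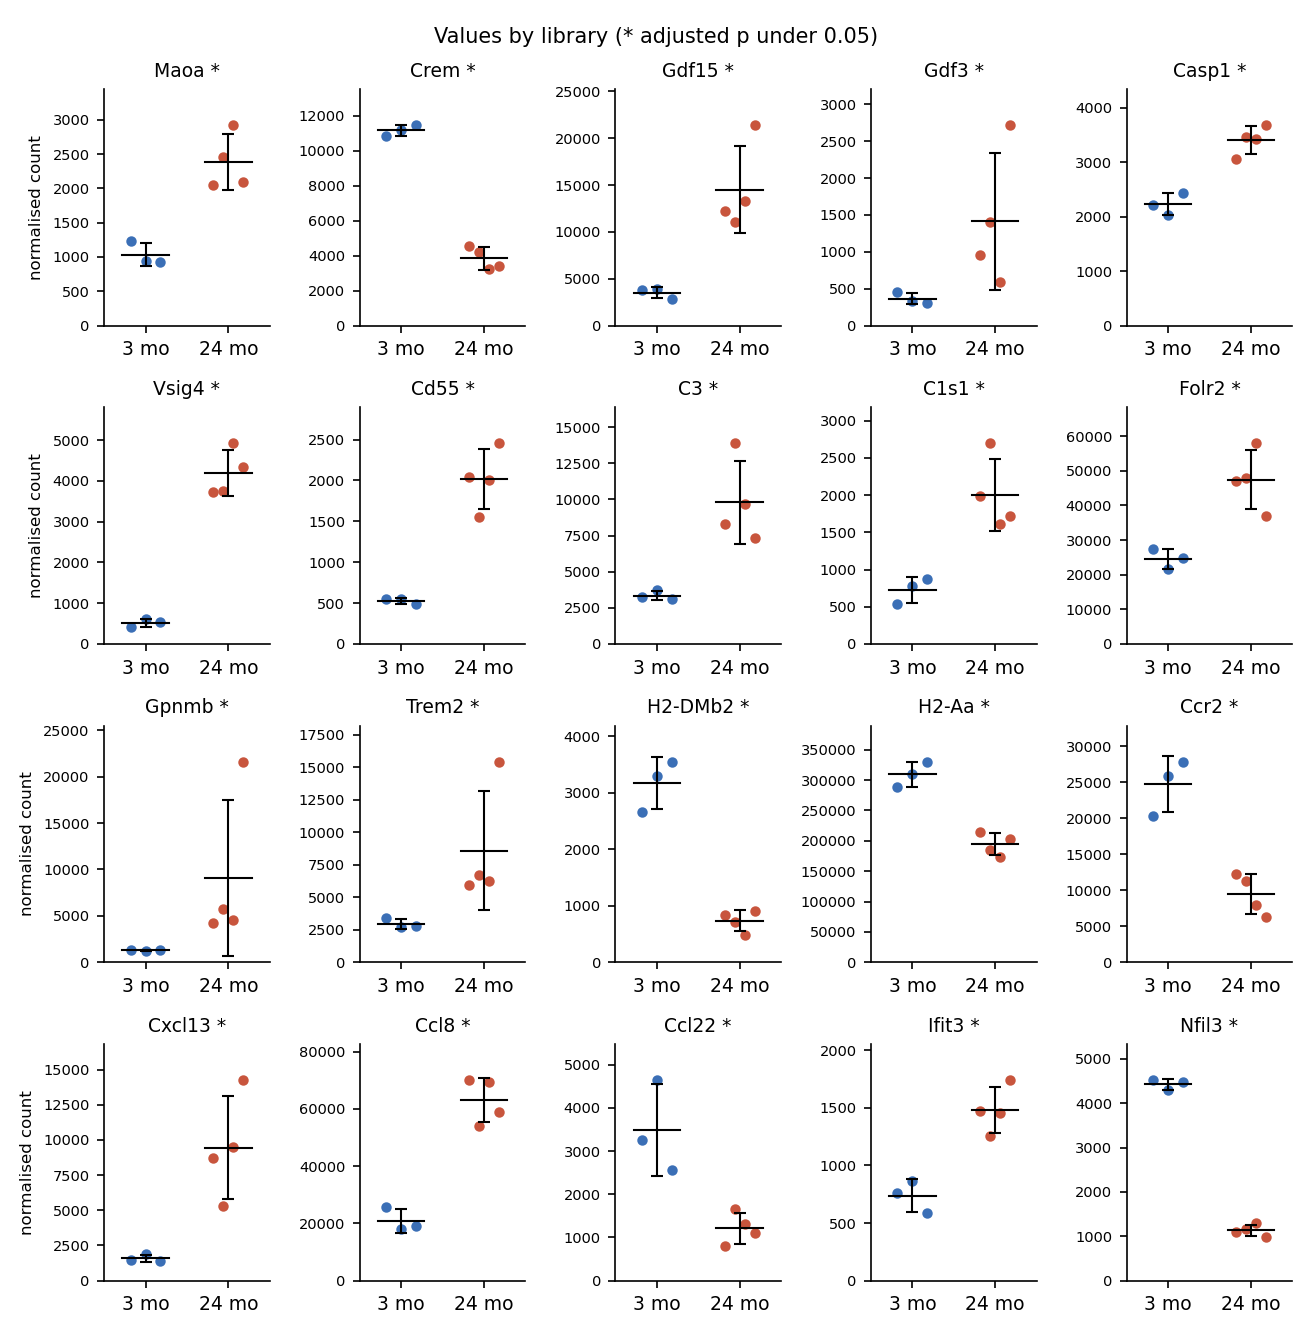
Each panel plots the normalised count of 1 gene in each library (points; 3 young in blue, 4 old in red) with the group mean and SD in black, each y axis starting at 0. The groups are apart in all 20 panels; the old libraries vary little for Vsig4, Nfil3 and Casp1 and widely for Gpnmb, Trem2 and Gdf3, in which 24-month replicate 4 is the highest.

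Complement genes rose from the initiators of the cascade to its terminal pathway. Complement is a set of secreted proteins that tag particles for uptake, together with the receptors and brakes that act on them. The initiators C1qa, C1qb and C1qc, chains of the recognition molecule C1q, were 1.63-fold, 1.51-fold and 1.66-fold higher. C1s1, a protease of the same complex, read 535, 780 and 868 at 3 months and 1992, 2695, 1608 and 1722 at 24 months (2.75-fold higher, adjusted p = 0.00236). C1ra, its partner protease, was 1.97-fold higher. The central component C3 read 3230, 3702 and 3083 at 3 months and 8309, 13877, 9681 and 7322 at 24 months. No old library of C3 came near the young ones (2.86-fold higher, log2 1.51 ± 0.19, adjusted p = 0.000978). C4b, which feeds the classical convertase, rose 3.27-fold, from 8304, 8005 and 6923 to 22326, 31576, 38573 and 14944. Cfb, the protease of the alternative pathway, rose 2.64-fold, and C6, of the terminal membrane attack complex, rose 5.86-fold.

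Receptors and inhibitors of complement were among the 13 as well. Vsig4, the complement receptor CRIg of tissue macrophages, read 409, 604 and 544 at 3 months and 3734, 3745, 4917 and 4350 at 24 months. Its lowest old library stood several times above its highest young one (8.11-fold higher, log2 3.02 ± 0.17, adjusted p = 6.58e-06). Cd55, which breaks up convertases on the cell's own surface, read 544, 546 and 485 at 3 months and 2048, 1555, 2010 and 2453 at 24 months (3.79-fold higher, adjusted p = 0.000328). Serping1, the C1 inhibitor, rose 2.31-fold, and C5ar1, the receptor for the fragment C5a, rose 1.65-fold. The 7 tested members that were not called included C2, C3ar1, Cfd, Cfp, Cr1l and Cd59a. Cfd, which fat cells secrete as adipsin, had the lowest log2 fold change among them, at −1.75.

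The complement count fell to 8 without 3-month replicate 2. Vsig4, C6, Cd55, C4b, C3, C1s1, Cfb and Serping1 kept their calls without each library in turn, whereas the calls of C1qa, C1qb, C1qc, C1ra and C5ar1 were lost without at least 1 (highest adjusted p of 0.0975, 0.18, 0.133, 0.15 and 0.151, for the C1q chains without 3-month replicate 2 and for C1ra and C5ar1 without 3-month replicate 3). With the spleen libraries in the fit, 6 members were called, and the adjusted p was 0.0853 for Vsig4, 0.224 for C1s1 and 0.287 for Serping1. Markers of fibroblasts moved in the same libraries: their summed level over 16 genes was 34430 to 36540 at 3 months and 63960 to 91630 at 24 months. Their part in the complement result was not tested. C4b has a near-identical neighbouring copy, between which reads can be split by the counting.

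**Figure D4:**
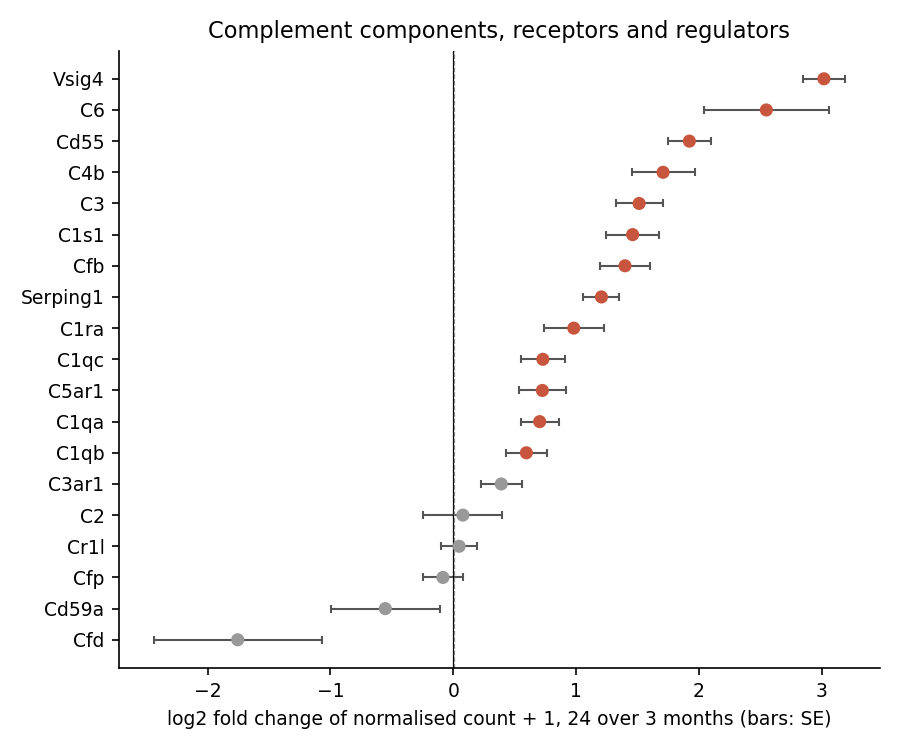
Points give the log2 fold change of 24 over 3 months for complement genes, with bars for the SE, red where the adjusted p is under 0.05 and grey where it is not. From C1qb at 0.60 to Vsig4 at 3.02, the 13 called genes lie above 0; the grey points run from Cfd at −1.75 to C3ar1 at 0.39.

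Genes of resident and perivascular macrophages rose in 9 of 22 tested cases, and none fell. Folr2, the folate receptor β that marks resident macrophages of many tissues, read 27407, 21554 and 24716 at 3 months and 47028, 47853, 57908 and 37058 at 24 months (1.92-fold higher, adjusted p = 0.00549). Fcna, a ficolin that opens the lectin pathway of complement, read 18715, 17611 and 12729 at 3 months and 57142, 76795, 100500 and 25189 at 24 months. Replicate 4 of the old group was the lowest of the 4 for both genes, though still above the young libraries. Ccl8, a chemokine typical of such cells, rose 3.04-fold, from 25670, 17959 and 18973 to 69984, 54150, 69308 and 58904 (adjusted p = 0.00039). Sepp1, the secreted selenium carrier, rose 1.90-fold, and Stab1, a scavenger receptor, rose 1.69-fold.

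The remaining calls of that list were Gas6, a bridging ligand for Mertk (1.65-fold), Igf1, a growth factor (1.36-fold), Ednrb, an endothelin receptor (2.20-fold, with overlapping ages), and Vsig4, given above. Lyve1, Timd4, Cd163 and Mrc1, which are used to define subsets of resident cells, were not called, with log2 fold changes of 0.69, 0.24, −0.53 and 0.28. Summed over the 22 genes, the level was 999400, 965300 and 1037000 at 3 months and 1456000, 1350000, 1591000 and 787100 at 24 months. Thus 24-month replicate 4 lay below every young library and the other 3 old libraries above them. Retnla, the most abundant member in the young libraries and not called, read 54470 in that replicate and 235700 to 509000 in the other 6 libraries. Without 24-month replicate 4, 14 of the 22 were called higher. The count was 4 without 3-month replicate 3, 5 without 3-month replicate 1, 3-month replicate 2 or 24-month replicate 2, and 2 with the spleen libraries in the fit. Highest adjusted p-values without 1 library, in each case 3-month replicate 3 unless stated, were 0.0718 for Fcna, 0.151 for Gas6, 0.151 for Igf1, 0.205 for Ednrb and 0.0969 for Sepp1 (3-month replicate 2), while Folr2, Ccl8, Stab1 and Vsig4 held. With the spleen libraries in the fit, the adjusted p was 0.178 for Ccl8, 0.467 for Folr2 and 0.593 for Stab1.

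Genes that mark lipid-associated macrophages, the Trem2-positive cells that gather around dying adipocytes, were higher in 7 of 21 cases. Gpnmb, a glycoprotein of lipid-loaded phagocytes, read 1327, 1222 and 1283 at 3 months and 4285, 5776, 4513 and 21602 at 24 months (5.49-fold higher, log2 2.46 ± 0.43, adjusted p = 0.00535). Trem2, a lipid-sensing receptor, read 3370, 2675 and 2766 at 3 months and 5909, 6678, 6265 and 15401 at 24 months (2.69-fold higher, adjusted p = 0.00837). Syngr1, a vesicle protein, rose 10.1-fold, from 158, 148 and 53.4 to 684, 1033, 991 and 2053. In all of these, 24-month replicate 4 was the highest, and the other 3 old libraries also lay above every young one. Without that replicate, the log2 fold changes were 1.92 for Gpnmb and 1.10 for Trem2, and both were still called (adjusted p = 1.34e-05 and 0.000194). Trem2 lost its call without 3-month replicate 3 (adjusted p = 0.0604), as did Ctsk (0.163), and the count of the list was 4 there. Spp1, Lpl, Fabp4, Fabp5, Lgals3 and Plin2, further markers of these cells, were not called, with log2 fold changes between −0.14 and 0.45, and Itgax, which encodes CD11c, stood at −0.92.

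Lysosomal hydrolases and membrane proteins rose in 12 and fell in 2 of 35 cases, and 31 of the 35 had a log2 fold change above 0. The proteases Ctsb and Ctsd, cathepsins B and D, were among the 8 most abundant called genes. Ctsb read 228450, 218470 and 154290 at 3 months and 358750, 381930, 310590 and 487830 at 24 months (1.92-fold higher, adjusted p = 0.026). Ctsl, cathepsin L, rose 1.92-fold, and Ctsk, cathepsin K, rose 4.46-fold, from 768, 620 and 508 to 1118, 2306, 2022 and 11466. The glycosidases Gaa, Glb1 and Hexa, which clear glycogen, galactosides and gangliosides, rose 2.04-fold, 1.62-fold and 1.46-fold. Cd63 and Lamp2, proteins of the lysosomal membrane, rose 2.04-fold and 1.44-fold. Grn, the progranulin precursor, rose 1.70-fold, Lgmn, an asparaginyl protease, rose 1.52-fold, and Ctsa, a carboxypeptidase, rose 1.59-fold.

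The falls in the list included Gm2a, the activator protein that presents gangliosides to hexosaminidase. Gm2a read 52302, 59142 and 57795 at 3 months and 27873, 24138, 17138 and 20305 at 24 months (2.56-fold lower, log2 −1.36 ± 0.17, adjusted p = 0.000945), opposite to Hexa, whose enzyme it serves. Of the vacuolar ATPase, the proton pump of the lysosome, 2 of 16 tested subunits rose, Atp6v0a1 by 1.53-fold and Atp6v1e1 by 1.42-fold. That share of 12.5% stands against 3.96% of all tested genes. The lysosomal count of rises was 3 without 3-month replicate 1 or 3, and 4 without 3-month replicate 2 or 24-month replicate 2. Cd63, Gaa, Ctsl and Gm2a held without each library. Among the others, the highest adjusted p-values were 0.135 for Ctsb, 0.152 for Ctsd, 0.163 for Ctsk, 0.151 for Ctsa, 0.211 for Lgmn, 0.0854 for Glb1, 0.141 for Lamp2, 0.211 for Atp6v0a1, 0.199 for Atp6v1e1 and 0.0825 for Grn, all without 3-month replicate 3, and 0.088 for Hexa without 3-month replicate 2.

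Promoters of the lysosomal genes that rose are shown because many genes of this class carry a palindromic E-box known as the CLEAR element, to which TFEB and related factors bind. The letters GTCACGTG were searched on both strands from 250 bases before to 50 bases after each start in RefSeq, build GRCm38.p6, the assembly that is also named mm10. They occurred in 2.25% of all 32851 promoters, in 4 of 13 promoters of the risen lysosomal genes and in 4 of 17 promoters of the members that were not called. The 13 promoters belong to 11 of the 12 risen genes. Capitals mark the match or its reverse complement, with 40 bases on each side as far as the window reaches.
Ctsa, chr2:164833719-164833822, plus strand: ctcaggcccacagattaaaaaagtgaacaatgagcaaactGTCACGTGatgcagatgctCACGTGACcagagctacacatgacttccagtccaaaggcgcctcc
Ctsd, chr7:142387878-142388077, minus strand: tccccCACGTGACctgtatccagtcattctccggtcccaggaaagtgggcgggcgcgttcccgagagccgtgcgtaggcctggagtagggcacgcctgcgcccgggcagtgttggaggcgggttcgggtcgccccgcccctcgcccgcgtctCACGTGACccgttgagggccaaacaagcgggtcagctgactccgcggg
Lgmn, chr12:102439096-102439183, minus strand: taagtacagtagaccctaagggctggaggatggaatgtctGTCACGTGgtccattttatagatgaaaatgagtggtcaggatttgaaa
Glb1, chr9:114400988-114401075, plus strand: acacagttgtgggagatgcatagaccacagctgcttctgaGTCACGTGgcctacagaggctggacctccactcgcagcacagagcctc
The first matches begin at positions −14, −245, −51 and −50 from the start in Ctsa, Ctsd, Lgmn and Glb1. They describe the sequence only.

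Genes of the type I interferon response, which antiviral signals induce through the factor ISGF3, rose in 9 of 31 cases, with none lower and 27 of 31 log2 fold changes above 0. Ifit3, an RNA-binding antiviral protein, read 763, 865 and 585 at 3 months and 1469, 1253, 1456 and 1738 at 24 months. The ages did not overlap (2.02-fold higher, log2 1.01 ± 0.18, adjusted p = 0.00611), and this gene alone among the 9 was called under all 19 alternatives. Its relatives Ifit1 and Ifit2 rose 1.87-fold and 2.21-fold. Irf9, the DNA-binding part of ISGF3, rose 1.63-fold. Usp18, which restrains interferon signalling, rose 1.88-fold, and Cmpk2, Rtp4, Oasl1 and Oasl2 rose between 1.82-fold and 2.04-fold. Isg15, Mx1 and Irf7, classical members of the same response, were not called, with log2 fold changes of −0.17, −0.31 and 0.83. The count was 2 of 31 without 3-month replicate 3 and 3 without 3-month replicate 2. Highest adjusted p-values without 1 library were 0.0508 for Ifit1, 0.0889 for Ifit2 and 0.0521 for Rtp4 without 3-month replicate 2, and 0.0769 for Irf9, 0.0523 for Usp18, 0.077 for Cmpk2, 0.0895 for Oasl1 and 0.178 for Oasl2 without 3-month replicate 3. Among 18 tested genes that interferon-γ induces, Irf1 rose 1.67-fold and Irgm2 1.76-fold (11.1%, against 3.96% of all tested genes). Neither held without each library (up to 0.125 and 0.167 without 3-month replicate 3). With all 11 VAT libraries in the fit, none of the 18 was called higher. Only 7 of the 18 had a log2 fold change above 0, and the median was −0.20.

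The core of the interferon-stimulated response element, GAAANNGAA, was searched in the same promoter windows on both strands, since Irf9 and its partners bind it. It occurred in 8.56% of all promoters, in 2 of 9 promoters of the risen genes that could be matched and in 12 of 15 promoters of the members that were not called. The 9 promoters belong to 7 of the 9 risen genes. The 2 with a match are those of neighbouring genes on chromosome 19, shown with the matches in capitals.
Ifit1, chr19:34640740-34640853, plus strand: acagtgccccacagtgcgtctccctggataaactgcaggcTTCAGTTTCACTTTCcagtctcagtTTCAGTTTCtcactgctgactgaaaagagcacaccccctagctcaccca
Ifit3, chr19:34583334-34583475, plus strand: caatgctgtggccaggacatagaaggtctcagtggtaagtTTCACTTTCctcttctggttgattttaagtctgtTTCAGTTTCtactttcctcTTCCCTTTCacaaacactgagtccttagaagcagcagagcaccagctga
Each window holds 3 matches, of which 2 overlap in Ifit1, and the first begin at −109 in Ifit1 and −155 in Ifit3.

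Antigen presentation on MHC class II went the other way, with 6 of 15 tested genes lower and none higher. The class II dimer displays peptides to CD4 T cells, and the H2-DM proteins load those peptides. H2-Aa, an α chain, read 289130, 309930 and 329990 at 3 months and 214340, 185460, 173800 and 202620 at 24 months (1.60-fold lower, log2 −0.68 ± 0.18, adjusted p = 0.0406). The β chains H2-Ab1 and H2-Eb1 were 1.77-fold and 1.70-fold lower. All of them were among the 8 most abundant called genes, together with Ctsb, Sepp1, Itm2b, C1qb and Ctsd. H2-DMb2, a β chain of the loading complex, read 2661, 3298 and 3551 at 3 months and 843, 714, 483 and 914 at 24 months. The highest old library of H2-DMb2 was far below the lowest young one (4.38-fold lower, log2 −2.13 ± 0.22, adjusted p = 0.00039). H2-DMa fell 2.34-fold and H2-DMb1 1.72-fold. H2-DMb1 and H2-DMb2 are close copies, between which reads can be split by the counting.

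H2-DMa, H2-DMb1 and H2-DMb2 kept their calls under all 19 alternatives, and the calls of H2-Aa, H2-Ab1 and H2-Eb1 were lost without single libraries (adjusted p of up to 0.137 and 0.0992 without 3-month replicate 2 and 0.084 without 3-month replicate 3). The count was then 3, also without 3-month replicate 1 and without 24-month replicate 2. Cd74, the invariant chain, and Ciita, the master activator of the class, were not called (log2 −0.46 and −0.37). None of 22 tested class I genes was called by limma (4 at an unadjusted p under 0.05, 0 by edgeR and 1 by DESeq2), with a median log2 fold change of 0.05. On the list for dendritic cells, which also carry class II, 3 of 16 genes were lower (18.75%, against 4.83% of all tested genes). They were Cd24a, Fscn1 and Klri1, the last by name a killer cell lectin-like receptor. Flt3 and Zbtb46, chosen as markers of dendritic cells, were not called. The summed level of the list was 36140 to 40550 at 3 months and 19120 to 40100 at 24 months. Without 3-month replicate 2 or 3 the dendritic cell count was 1, and without 24-month replicate 4 it was 5. Without 3-month replicate 3, Cd24a (0.112) and Fscn1 (0.059) were not called, which left Klri1. The part of dendritic cells in the class II result was not tested.

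Class II promoters carry a Y box, the letters CCAAT or their reverse complement, beside the X box. CCAAT was found in 37.4% of all promoters in the window, in 5 of 6 promoters of the fallen genes that could be matched and in 4 of 6 promoters of the members that were not called. The 6 promoters belong to 5 of the 6 fallen genes, since H2-Ab1 could not be matched. H2-DMa has 2 of them, and the promoter without CCAAT is 1 of these 2. The 5 promoters with a match are printed to show how far they agree around the match, which is in capitals.
H2-Aa, chr17:34287827-34287911, minus strand: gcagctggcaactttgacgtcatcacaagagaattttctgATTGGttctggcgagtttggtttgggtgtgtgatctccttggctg
H2-Eb1, chr17:34305768-34305876, plus strand: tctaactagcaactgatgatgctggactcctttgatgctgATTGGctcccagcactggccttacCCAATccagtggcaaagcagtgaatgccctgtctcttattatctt
H2-DMa, chr17:34125280-34125364, plus strand: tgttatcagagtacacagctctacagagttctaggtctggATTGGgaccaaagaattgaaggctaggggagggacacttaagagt
H2-DMb1, chr17:34153090-34153174, plus strand: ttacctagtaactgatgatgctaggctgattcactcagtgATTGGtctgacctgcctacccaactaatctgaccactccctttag
H2-DMb2, chr17:34145119-34145203, plus strand: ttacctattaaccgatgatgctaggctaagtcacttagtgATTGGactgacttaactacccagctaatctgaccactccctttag
In H2-Aa, H2-Eb1, H2-DMb1 and H2-DMb2 the first match begins between −90 and −48, and in H2-DMa at −198.

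Monocyte genes fell in 5 of 21 cases and none rose. Ccr2, the receptor by which monocytes leave the blood, read 20368, 25953 and 27859 at 3 months and 12308, 11301, 7998 and 6259 at 24 months. The ages did not overlap (2.68-fold lower, log2 −1.42 ± 0.22, adjusted p = 0.00254), and the call held under all 19 alternatives. Fn1, fibronectin, read 48428, 65209 and 70644 at 3 months and 26903, 25385, 17534 and 9564 at 24 months (3.30-fold lower, adjusted p = 0.00523). Cx3cr1, the fractalkine receptor, was 1.84-fold lower, S100a4 1.65-fold lower and Thbs1, a matrix protein, 2.44-fold lower with overlapping ages. Ly6c2 and Plac8, which mark classical monocytes, were not called (log2 −0.06 and −0.39). The count was 2 without 3-month replicate 2 and with the spleen libraries in the fit, and 3 without 3-month replicate 1, 3-month replicate 3 or 24-month replicate 2. Highest adjusted p-values without 1 library were 0.0965 for Cx3cr1 (3-month replicate 2), 0.119 for Thbs1 (3-month replicate 1) and 0.118 for S100a4 (3-month replicate 3).

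Integrins and adhesion receptors, which hold leukocytes to vessels and matrix, were lower in 6 of 22 cases. Itga4, the α4 integrin, read 3866, 3392 and 3750 at 3 months and 1852, 1907, 2400 and 1428 at 24 months (1.96-fold lower, adjusted p = 0.00524). Its partner Itgb7 fell 2.23-fold, and Itgal, the α chain of LFA-1, fell 1.71-fold. Cd44, the hyaluronan receptor, fell 1.85-fold, from 16771, 20011 and 19781 to 9456, 10371, 8610 and 12750. Pecam1 and L1cam, adhesion molecules that endothelial cells also carry, fell 2.99-fold and 3.19-fold. Itga4, Cd44 and Pecam1 held without each library, the count was 3 without 3-month replicate 1 or 2, and the calls of Itgb7 (0.0627 without 3-month replicate 1), Itgal (0.115 without 3-month replicate 3) and L1cam (0.152 without 3-month replicate 3) did not.

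Lyz1, a lysozyme gene, stood out among the identity genes. It read 94524, 120160 and 167960 at 3 months and 38051, 35556, 27486 and 22963 at 24 months (4.08-fold lower, log2 −2.03 ± 0.22, adjusted p = 0.000498). Lyz2, the lysozyme of all macrophages and a near copy of it, was at −0.03 on the log2 scale and was not called. Fcrls, an Fc receptor-like protein, fell 2.72-fold, from 38582, 44487 and 53396 to 21388, 19232, 18309 and 9956. Pilra, an inhibitory receptor of myeloid cells, fell 3.04-fold. The call of Fcrls was lost in the fit with the spleen libraries (adjusted p = 0.278).

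Transcription factors fell in 5 and rose in 2 of 29 cases (17.2% and 6.9%, against 4.83% and 3.96% of all tested genes). Nfil3, counted with the clock genes, is a transcriptional repressor and had the second smallest adjusted p of all genes. It read 4520, 4290 and 4488 at 3 months and 1102, 1159, 1292 and 985 at 24 months, with little spread within either age (3.92-fold lower, log2 −1.97 ± 0.14, adjusted p = 3.91e-05). It was the one called gene among 17 tested clock genes (5.88%, against 4.83% of all tested genes called lower). Nr4a2, an orphan nuclear receptor that cAMP induces, fell 2.86-fold, from 3696, 5380 and 5365 to 1671, 2043, 1338 and 1660. Runx3 fell 3.50-fold, Irf4, a factor of alternative activation, fell 1.82-fold, Id2 fell by 0.85 on the log2 scale and Cebpb was lower with an adjusted p of 0.0263. Id3, a relative of Id2 and a factor of tissue-resident macrophages, rose 1.78-fold, from 5728, 6860 and 5951 to 10743, 12594, 11410 and 9362. Nr1h3, the cholesterol sensor LXRα, rose 2.27-fold. Nr4a2, Runx3, Id3 and Nfil3 held without each library, while the calls of Irf4 (0.0708 without 3-month replicate 1), Id2 (0.0637 without 3-month replicate 3), Cebpb (0.123 without 3-month replicate 1) and Nr1h3 (0.11 without 3-month replicate 3) did not. Without 3-month replicate 3, 2 of the 5 falls were called. The call of Nr4a2 was lost in the fit with the spleen libraries (adjusted p = 0.486).

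Chemokines rose in 5 and fell in 2 of 23 cases (21.7% and 8.7%, against 3.96% and 4.83% of all tested genes). Cxcl13, which attracts B cells, read 1465, 1897 and 1423 at 3 months and 8736, 5314, 9520 and 14241 at 24 months. All old libraries were above all young ones (5.63-fold higher, log2 2.49 ± 0.26, adjusted p = 0.00039), under each of the 19 alternatives. Cxcl1, a neutrophil attractant, rose 2.13-fold, from 18395, 21633 and 21318 to 39099, 54052, 31788 and 52881. Ccl4 rose 1.87-fold and Cxcl12 1.79-fold, beside Ccl8. Ccl22, a ligand of the receptor CCR4, read 3254, 4642 and 2556 at 3 months and 800, 1662, 1304 and 1097 at 24 months (2.88-fold lower, adjusted p = 0.00386), and Ccl17, the other ligand of CCR4, fell 4.83-fold. Among receptors, S1pr1, Cxcr3 and Ackr3 rose beside C5ar1, by 1.73-fold, 1.88-fold and 2.16-fold, and Cxcr4 fell 1.72-fold beside Ccr2 and Cx3cr1. Without 1 library, adjusted p-values reached 0.0719 for Ccl4, 0.116 for Cxcl12, 0.0549 for Ccl17, 0.135 for Cxcr4 and 0.0686 for S1pr1 without 3-month replicate 3, and 0.0966 for Cxcr3 and 0.155 for Ackr3 without 3-month replicate 1. Without 3-month replicate 3, 3 chemokines were called higher and 1 lower, and without 3-month replicate 1, 3 were called higher. No receptor was called higher without either library. With the spleen libraries in the fit, Cxcl13 and Ccl22 kept their calls and the other 5 chemokines did not. The adjusted p was then 0.178 for Ccl8, 0.437 for Cxcl1, 0.179 for Ccl4, 0.343 for Cxcl12 and 0.0912 for Ccl17, and 1 rise and 1 fall among the receptors remained.

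Cytokine genes were higher in 3 of 22 cases (13.6%, against 3.96% of all tested genes). Il10, an anti-inflammatory cytokine, read 1802, 1876 and 1321 at 3 months and 3248, 4809, 3429 and 6545 at 24 months (2.63-fold higher, adjusted p = 0.00408). Tnf, tumour necrosis factor, read 6919, 6264 and 6460 at 3 months and 8926, 13414, 10129 and 15512 at 24 months (1.79-fold higher, adjusted p = 0.0136). Tnfsf9, the ligand of the co-stimulator 4-1BB, rose 2.68-fold. In each of the 3, no old library overlapped a young one and 24-month replicate 4 was the highest. Il6 and Il12b were not called (log2 −0.45 and −0.71). Tnf and Tnfsf9 lost their calls without 3-month replicate 3 (adjusted p = 0.0709 and 0.0557), which left Il10 of the 3, and Il10 lost its own in the fit with the spleen libraries (0.22). Of Toll-like receptors and adaptors, Tlr4, the receptor for endotoxin, rose 2.25-fold and held under all 19 alternatives, and Tlr8 rose 2.20-fold, a call lost without 3-month replicate 3 (0.19), among 23 tested. The 2 rises are 8.7% of that list, against 3.96% of all tested genes.

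Glycolysis genes fell in 4 of 22 cases and none rose. Hk2, the inducible hexokinase that commits glucose to the pathway, read 2993, 2948 and 3288 at 3 months and 1888, 1686, 1001 and 1094 at 24 months (2.25-fold lower, adjusted p = 0.00641). Slc2a6, a sugar transporter of the lysosomal membrane, fell 2.17-fold, Slc16a3, a lactate exporter, 1.89-fold, and Hif1a, the oxygen-sensing activator of glycolysis, 1.52-fold. Enzymes of the middle and lower pathway, such as Gapdh, Eno1, Pkm and Ldha, were not called, with log2 fold changes between −0.21 and −0.04. Idh1 and Idh2, isocitrate dehydrogenases, rose 1.44-fold and 1.49-fold among 26 tested genes of the TCA cycle (7.69%, against 3.96% of all tested genes). Slc2a6 held without each library. The others reached 0.0506 for Hk2 without 3-month replicate 3, 0.162 for Slc16a3 without 3-month replicate 1, 0.0782 for Hif1a without 3-month replicate 2, and 0.206 and 0.143 for Idh1 and Idh2 without 3-month replicate 3, where 1 glycolysis gene was called lower. That count was 2 without 3-month replicate 1 or 2 and 7 without 24-month replicate 4.

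Oxidant defence genes moved in both directions, with 3 of 27 higher and 4 lower (11.1% and 14.8%, against 3.96% and 4.83% of all tested genes). Gpx3, a secreted glutathione peroxidase that carries selenium, read 8814, 11484 and 8033 at 3 months and 24098, 31694, 26833 and 22393 at 24 months (2.79-fold higher, log2 1.48 ± 0.16, adjusted p = 0.000498). Sod3, the extracellular superoxide dismutase, rose 2.12-fold, and Gstm1, a glutathione transferase, rose 2.02-fold. The cytosolic dismutase Sod1 read 7900, 8316 and 7754 at 3 months and 4914, 4514, 3952 and 3679 at 24 months (1.88-fold lower, adjusted p = 0.00209). Nfe2l2, which encodes the factor NRF2 itself, fell 1.41-fold, Txnrd1, thioredoxin reductase, 1.45-fold, and Slc7a11, the cystine importer, 3.28-fold. Gpx3, Gstm1, Sod3 and Sod1 held without each library, while Nfe2l2 (0.172) and Slc7a11 (0.124) were lost without 3-month replicate 2 and Txnrd1 (0.116) without 3-month replicate 3, with 1 of the 4 falls left. With the spleen libraries in the fit Sod3 was lost (0.474).

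Genes of iron handling rose in 3 of 18 cases (16.7%, against 3.96% of all tested genes). Cp, ceruloplasmin, a ferroxidase, read 2435, 2474 and 2157 at 3 months and 4830, 6292, 5259 and 5423 at 24 months (2.31-fold higher, adjusted p = 0.000513). Slc40a1, the iron exporter ferroportin with which ceruloplasmin works, rose 1.87-fold, and Blvrb, a biliverdin reductase, rose 1.53-fold. The calls of Slc40a1 and Blvrb were lost without single libraries (up to 0.0939 without 3-month replicate 3 and 0.108 without 3-month replicate 2), and the count was 1 without 3-month replicate 3 and 5 without 24-month replicate 4. Cp was lost in the fit with the spleen libraries (0.128).

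Cell cycle genes fell in 3 of 32 cases (9.4%, against 4.83% of all tested genes), and 29 of the 32 had a log2 fold change below 0. Ccnd2, cyclin D2, which drives entry into the cycle, read 3224, 3586 and 4359 at 3 months and 1325, 1670, 1202 and 938 at 24 months (2.94-fold lower, adjusted p = 0.000945). Ube2c, a ubiquitin enzyme of mitosis, fell 3.57-fold, from 1382, 1722 and 2427 to 479, 465, 288 and 989. Ccnb2, a mitotic cyclin, read 572, 486 and 481 in old replicates 1 to 3 and 1235 in replicate 4, which lay among the young values of 1154, 1723 and 1351 (2.18-fold lower, adjusted p = 0.0381). Without 24-month replicate 4, 17 of the 32 were called lower, and without 3-month replicate 3, 1 was. Mki67 and Top2a, markers of dividing cells, had log2 fold changes of −0.78 and −1.14 over all 7 libraries and were not called. Of 22 tested p53 targets and cell cycle inhibitors, Sesn1 (1.85-fold), Plk2 and Trp53inp1 rose (13.6%, against 3.96% of all tested genes). Pmaip1 fell (4.5%, against 4.83% of all tested genes). Of the 22, 8 had a log2 fold change above 0, and the median was −0.15. Cdkn1a, which encodes p21, was not called (log2 −0.39). Sesn1 held without each library, while Ube2c (0.0619) and Plk2 (0.201) lost their calls without 3-month replicate 3, Ccnb2 (0.141) and Pmaip1 (0.0633) without 3-month replicate 2, and Trp53inp1 (0.126) without 3-month replicate 1.

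Markers of other cell types moved as well, although the cells had been sorted. B cell genes were higher in 6 of 12 tested cases, and their summed level was 2760 to 3204 at 3 months and 5855, 5238, 5439 and 13670 at 24 months. Cd79a, a chain of the B cell receptor, read 102, 102 and 80.7 at 3 months and 671, 498, 695 and 2566 at 24 months (9.21-fold higher, adjusted p = 0.00187). Replicate 4 of the old group was far above the others, and without it Cd79a was still called (log2 2.69). Plasma cell genes were higher in 4 of 10 cases and lower in 1. Jchain, which joins antibody chains, rose 7.07-fold, from 4318, 8361 and 2225 to 22104, 29234, 47384 and 28309, and Mzb1, an antibody-folding chaperone, rose 7.33-fold. The B cell count was 3 and the plasma cell count 2 without 3-month replicate 1 and without 3-month replicate 3.

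Fibroblast genes were higher in 7 of 16 cases. Dcn, decorin, read 16447, 19275 and 17293 at 3 months and 39539, 58224, 45625 and 33980 at 24 months (2.46-fold higher, adjusted p = 0.00134). Pdgfra, a receptor that defines fibroblasts and fat progenitors, read 165, 292 and 191 at 3 months and 753, 714, 677 and 369 at 24 months (2.88-fold higher, adjusted p = 0.00971). Lum, Mfap5 and Dpt, which encode matrix proteins, rose 2.32-fold, 2.33-fold and 2.28-fold. Beside them, Mmp2 and Mmp14, proteases that open collagen networks, rose 2.42-fold and 1.96-fold, and Fbln2, Fbn1 and Nid1 of the extracellular matrix list rose between 1.75-fold and 2.34-fold. That list had 6 of 22 members higher and 2 lower, namely Fn1 and Thbs1. The fibroblast count was 5 at its lowest without 1 library (3-month replicate 3 among others) and 1 with the spleen libraries in the fit, where the adjusted p was 0.329 for Dcn. Pdgfra (0.059), and without 3-month replicate 1 Mmp14 (0.051) and Fbln2 (0.0555), lost their calls without 1 library, for Pdgfra 3-month replicate 3. The calls of Fbn1 (0.0562) and Nid1 (0.102) were lost without 3-month replicate 2, and the extracellular matrix count was 3 there and without 3-month replicate 1. With the spleen libraries in the fit, no gene of the extracellular matrix list and none of the matrix proteases and inhibitors was called higher.

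Endothelial genes fell in 7 of 16 cases, with a summed level of 5038 to 6888 at 3 months and 2943 to 4310 at 24 months. Vwf, von Willebrand factor, read 516, 336 and 642 at 3 months and 145, 155, 147 and 73.5 at 24 months (3.83-fold lower, adjusted p = 0.00594), and Esam and Emcn, vessel surface proteins, fell 4.09-fold and 9.32-fold. Natural killer and innate lymphoid genes fell in 4 of 16 cases. Klrk1, the receptor NKG2D, read 1490, 1664 and 1970 at 3 months and 386, 390, 156 and 385 at 24 months (5.49-fold lower, adjusted p = 0.000945). Il5, the eosinophil growth factor made by type-2 lymphoid cells, read 86.9, 294 and 60.8 at 3 months and 1, 5.67, 13.7 and 1 at 24 months (26.3-fold lower, adjusted p = 0.0119). Il1rl1, the receptor for interleukin-33 on such cells, fell 2.19-fold and Klrd1 fell 3.03-fold. Of the T cell list 2 of 18 genes fell, Cd2 (4.27-fold) and Cd4 (2.24-fold), while Cd3e read 50.1, 127 and 50.9 at 3 months and 148, 108, 61.7 and 107 at 24 months and was not called. The 2 falls are 11.1% of that list, against 4.83% of all tested genes. Among the 18, 10 had a log2 fold change above 0, and the median was 0.17. Their summed level was nevertheless lower, at 4745 to 6848 at 3 months and 2751 to 3955 at 24 months.

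Of 8 tested eosinophil genes, Ear2 and Ear1, ribonucleases, fell 5.83-fold and 4.48-fold, Prg2, the major basic protein, rose 4.78-fold, and Siglecf overlapped between the ages. Of 10 tested erythroid genes, 6 fell and 1 rose. The haemoglobin genes Hba-a1, Hba-a2, Hbb-b1, Hbb-bs, Hbb-bt and Hbb-b2 fell between 6.16-fold and 7.40-fold, and none of the 6 was called without 3-month replicate 3. They share reads, and Hbb-bt and Hbb-b2 had identical values and count as 1 measurement. The erythroid gene called higher was Epor, a call lost without 3-month replicate 3 and in the fit with the spleen libraries. With the spleen libraries in the fit 4 endothelial genes were called lower. Without 3-month replicate 3, 2 endothelial genes were called, Il1rl1 (0.149), Klrd1 (0.0901), Ear1 (0.157), Prg2 (0.0768), Vwf (0.0549) and Emcn (0.066) were not, and Il5 was lost without 3-month replicate 2 (0.0957), where 1 lymphoid gene remained. Cd4 was lost without 3-month replicate 1 (0.175). Ear2, Klrk1, Cd2 and Esam held without each library. No adipocyte, neutrophil or mast cell marker was called by limma, of 13, 9 and 12 tested. At an unadjusted p under 0.05 there were 4, 4 and 1, and edgeR and DESeq2 called 0.

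**Figure D5:**
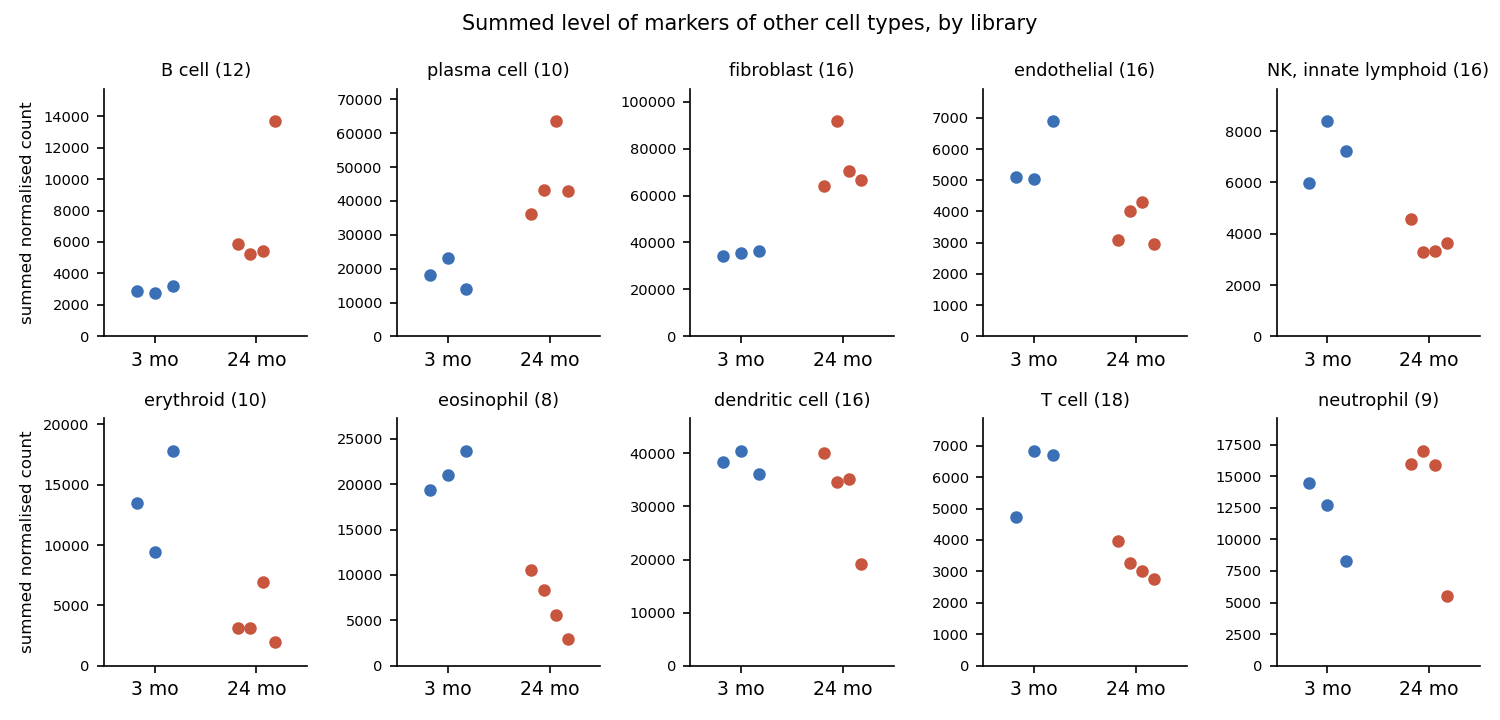
Points give, for each library, the sum of the normalised counts of the tested markers of a cell type (number of genes in brackets; 3 months in blue, 24 months in red; each y axis starts at 0). Sums of B cell, plasma cell and fibroblast markers are higher in every old library than in any young one. Those of endothelial, natural killer, erythroid, eosinophil and T cell markers are lower in every old library. Not all members go with these lower sums. A log2 fold change above 0 was found for 10 of 18 T cell, 4 of 16 natural killer and 3 of 10 erythroid genes. It was also found for 3 of 8 eosinophil genes and 1 of 16 endothelial genes. Dendritic cell and neutrophil sums overlap, and the B cell sum of 24-month replicate 4, at 13670, stands above the rest.

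The largest rise among genes with a mean of at least 100 in 1 group was that of C130026I21Rik, a gene with no established name. It read 6.14, 24.9 and 12.4 at 3 months and 630, 737, 918 and 1390 at 24 months, a 64.9-fold difference (log2 6.02 ± 0.46, adjusted p = 5.92e-05) that held under each of the 19 alternatives. Tmem246, a membrane protein, read 1, 5.54 and 1 at 3 months and 80.1, 86, 187 and 49.3 at 24 months, so that its young libraries were near the limit of 3 reads. Fbln7, a fibulin of the matrix, rose 26.8-fold, from 1, 5.54 and 17.4 to 100, 189, 112 and 352. Klra3, a receptor of the Ly49 family, rose 10.8-fold, Ly6d, a surface protein of lymphoid progenitors, 9.25-fold, and Cpeb1, which regulates translation, had a log2 fold change of 3.32. The 12 largest rises also included Gm14461, Eaf2, Faim3, Syngr1 and Cd79a, of which Faim3 and Cd79a are on the B cell list and Eaf2 on the plasma cell list. Of those named, Eaf2 lost its call without 3-month replicate 3 (0.0752), without 3-month replicate 1 (0.0547) and by edgeR (0.0925).

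The 12 largest falls reached from 26.3-fold for Il5 to 14.3-fold for Mucl1. Cnn1 and Actg2, calponin and γ-actin of smooth muscle, fell 23.6-fold and 22.3-fold: Cnn1 read 69.5, 268 and 307 at 3 months and 3.2, 35.9, 1 and 9.86 at 24 months. Mucl1, a mucin-like protein, read 559, 477 and 584 at 3 months and 85.4, 40.6, 67.6 and 7.17 at 24 months (adjusted p = 0.00524) and alone among the 12 kept its call without each library. Ccl21c, a chemokine of lymphatic vessels, read 106, 170 and 114 at 3 months and 4.27, 21.7, 14.7 and 1 at 24 months. Gm10591, Gm13304 and Gm21541, copies of the same chemokine gene, had the same values in each library and add no measurement of their own. Lsmem1, Calcb, Sv2b and Klri2 complete the set. Without 3-month replicate 3, adjusted p-values reached 0.109 for Cnn1, 0.077 for Lsmem1, 0.184 for Calcb and 0.108 for Sv2b. Without 3-month replicate 2, they reached 0.0957 for Il5, 0.0781 for Actg2, 0.0814 for Ccl21c and 0.0982 for Klri2. Calcb was called in 9 of the 19 alternatives. It was lost by edgeR (0.141), by DESeq2 (0.384) and with all 11 VAT libraries in the limma fit (0.0656), among others. Sv2b was also lost by edgeR (0.119) and DESeq2 (0.199).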

How the data were processed

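RNA of sorted macrophages was sequenced, and the authors deposited tables of gene-level signal, read counts scaled by library, with a value of 1 where no read was counted. The submitters' processing notes name build mm10 and list DESeq2, Partek, TopHat and CASAVA 1.8.2, without the role of each. The counting rule, its strand setting and any filter are not given in the sources used here, so near-identical, overlapping and antisense genes are uncertain. At least 99.843% of values in each library came out as whole reads (within 0.05 read) after rescaling.

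From the deposited signal, log2(value + 1) was fitted with limma 3.58.1 (trend, two-sided, R 4.3.3) over the 3 and 4 libraries, for genes with a mean of at least 10, with Benjamini-Hochberg adjustment and a threshold of 0.05. The count tests edgeR 4.0.16 and DESeq2 1.42.0 on the recovered reads were alternatives, as were pseudocount 10, other filters, normalisations and library sets, array weights, a replicate block and each library left out. Tables were handled with Python 3.11.15 and pandas 2.3.3, and the fit was tested on simulated data. Libraries of 1 age differed by more than sampling noise, with Spearman correlations from 0.956 to 0.982.

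Genes were named by these rules: genes of the pathways under study; the 12 largest rises and falls among called genes that do not overlap between ages and reach a group mean of 100; up to 4 called members per list, by size; the 8 most abundant called genes; and cell type markers. Other called list members were added after their values were seen, and members that were not called are named as examples chosen in the same way. The members and lists were chosen with earlier results of these data known. A few genes are not reported here, although they count in the list totals.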

Additional observations from a re-analysis of the deposited data

Results flagged for a closer look

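In each of the 234 chosen genes, the 4 old libraries were examined for 1 library that stood apart from the other 3, by the gap to its nearest neighbour over the whole range (Dixon's critical value at 95%). For normally distributed and independent values, chance flags about 1 in 20 such groups. The values here were normalised counts without a log, and genes can move together, so that rate need not hold. The criterion was met by 21 genes. Replicate 4 was the highest for 10 of them. Among B cell genes it read 750.3 for Faim3, 2566.5 for Cd79a, 2706.3 for Cd79b and 1353.6 for Ms4a1, where the other 3 libraries did not pass 1044. Among genes of lipid-laden phagocytes and lysosomes it read 15401 for Trem2, 21602 for Gpnmb, 11466 for Ctsk and 1548.2 for Nr1h3. It read 1235.3 for the mitotic cyclin Ccnb2 and 1568.8 for the interferon-induced Oasl1. The same replicate was the lowest for Ear1, at 9.86, and for Vwf, at 73.5.

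Replicate 3 was the highest for Sv2b at 71.5, for the haemoglobin genes Hbb-bt and Hbb-b2 at 234.1 (1 measurement) and for Alas2, an enzyme of haem synthesis, at 52.9, and the lowest for Klrk1 at 155.7. Replicate 2 was the highest for Emcn at 83.2, Msln at 84.1 and Serping1 at 8341.5. Replicate 1 was the lowest for Grn, at 41382.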

How the results depend on the processing

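Against 1148 calls (517 higher, 631 lower), the wild-type table with all 13 libraries gave 740 (306 higher), DESeq2 1744 (835 higher), array weights 1888 (888 higher, 1000 lower) and the replicate block 1727 (796 higher). Leaving out 1 library gave 346 to 1412 calls, of which 172 to 630 were higher and 174 to 782 lower. Same-numbered libraries of the 2 ages deviated together only weakly (correlations of 0.030, 0.033 and 0.056). Libraries of different number had correlations from −0.096 to 0.090. Weak correlations cannot show whether the samples were paired, and the labels give only a shared number. Replicate number 4 exists only at 24 months, so the replicate block leaves that library without weight in the comparison of ages. The replicate block is given for its count alone. Of the 217 called genes that the naming rules chose, 208 did not overlap between the ages and could not reverse with 1 library left out. All 217 kept their direction and 55 their call under each of the 19 alternatives that tested them. Without 3-month replicates 1, 2 and 3, 99, 100 and 134 of them lost their call, and without 24-month replicates 1 to 4, 19, 69, 41 and 4 did. These fits hold fewer samples. Msln, a mesothelial marker that was not called, changed sign: its log2 fold change was −0.0061 with pseudocount 10, and without 1 library it ran from −1.14 (3-month replicate 3) to 1.41 (3-month replicate 1), with −0.84 without 24-month replicate 2. The cause was not tested. Of the 1148 genes, 1020 were also called by edgeR. Values near the limit of 3 reads, such as the young libraries of Tmem246, do not fix the size of a fold.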
